A study of Mus musculus with 6 samples.

Results

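Immunoglobulin light chains are made from a variable (V) segment, a joining (J) segment and a constant (C) region, and a B cell joins 1 V to 1 J in its DNA before the chain can be expressed. Mice have a kappa locus, with many V segments and a single constant gene, and a small lambda locus, with few V segments and several J and C pairs. A B cell normally uses kappa or lambda but not both, and kappa dominates in mice. Plasma cells, the antibody-secreting end of the lineage, carry far more light chain RNA per cell than resting B cells, so the level in a bulk sample does not count cells.

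The 7 genes described here were taken by symbol from the 30733 symbols in the deposited tables: the kappa constant gene Igkc, the lambda constant genes Iglc1, Iglc2 and Iglc3, and the lambda V segments Iglv1, Iglv2 and Iglv3. All 7 were found. The samples, labelled hematopoietic stem cell, were sorted from the bone marrow of wild-type (WT) mice aged 5 months into an MHCII-lo and an MHCII-hi fraction, named for low and high MHC class II. Each group had 3 libraries, and the titles of both carry the tag Ctrl. The labels do not state strain, sex, the markers of the gate or whether animals were pooled, nor that the libraries came from separate animals. The p-values below thus rest on library-to-library spread alone, and that spread may be technical. Values are read as FPKM, fragments counted per kilobase of a transcript and corrected for the size of the library, a unit that the files do not name. Read depth and read length are unknown.

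The library totals lay between 305934 and 306945 FPKM in MHCII-lo and between 333347 and 333530 FPKM in MHCII-hi. The share of mitochondrial transcripts was 8.81% to 8.96% and 12.5% in every MHCII-hi library, and leaving these genes out of the totals moved the log2 difference of the light chain share from 4.79 to 4.85. The labelled cell type was checked against a list of 10 stem cell markers. Their summed level was 18.2 to 18.7 FPKM in MHCII-lo and 32.3 to 33.8 FPKM in MHCII-hi, and 6 of the 10 stayed below the expression minimum of 1 FPKM, among them Slamf1, Procr and Mecom. Hoxb5 was listed at 0 in all libraries but MHCII-hi library 2, where it stood at 0.01 FPKM. Markers of mature blood cells were present in both fractions, with 6 neutrophil genes summing to 14676 to 14738 FPKM in MHCII-lo and 19396 to 19680 FPKM in MHCII-hi. Of these, 3 rose, Mpo and Elane fell, and S100a8 did not pass the test. Over all tested genes 27.2% rose and 40.5% fell. Of the 2 stem cell markers that reached the minimum in both groups, Ly6a rose and Kit did not pass. The fractions are therefore called by their labels.

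The kappa constant gene Igkc (ENSMUSG00000076609.2) lies on chromosome 6 of GRCm38, from 70726435 to 70726966 on the plus strand, and is a single exon of 532 bases in the GENCODE M21 annotation. The lambda elements lie on chromosome 16, on the minus strand, within 199.2 kb from 19061618 to 19260859. By the start of each annotated gene, in the direction of transcription, the order is Iglv2, Iglv3 19.2 kb on, Iglc2 at 60.5 kb, Iglv1 at 175.4 kb, Iglc3 at 195.2 kb and Iglc1 at 198.8 kb. Iglc1, Iglc2 and Iglc3 are annotated as single constant exons of 454, 458 and 452 bases, with a second, longer transcript for Iglc2. The 60.5 kb of Iglc2 is measured to the start of that longer transcript, which lies upstream of its constant exon. The V segments have 2 exons each and transcripts of 391, 366 and 381 bases for Iglv1, Iglv2 and Iglv3.

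Sequence similarity decides which of these genes can be read separately, so the most similar pairs are shown. The coding parts of Iglc2 and Iglc3 were identical at 303 of 314 aligned bases (96.5%). The 270-base stretch below holds all 11 differing bases, in capitals, read 5′ to 3′ on the minus strand of GRCm38, at chr16:19198583-19198852 for Iglc2 and chr16:19065412-19065681 for Iglc3.
Iglc2: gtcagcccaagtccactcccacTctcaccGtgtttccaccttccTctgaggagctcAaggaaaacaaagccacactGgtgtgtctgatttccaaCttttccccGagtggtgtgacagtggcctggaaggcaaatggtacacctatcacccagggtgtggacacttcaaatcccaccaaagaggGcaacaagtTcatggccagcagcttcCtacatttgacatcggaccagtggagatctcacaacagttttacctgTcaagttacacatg
Iglc3: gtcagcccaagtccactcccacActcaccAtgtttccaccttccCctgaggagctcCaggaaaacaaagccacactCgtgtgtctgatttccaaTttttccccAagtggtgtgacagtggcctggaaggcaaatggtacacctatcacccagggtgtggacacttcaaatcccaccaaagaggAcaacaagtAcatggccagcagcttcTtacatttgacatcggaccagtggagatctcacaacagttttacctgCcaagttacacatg
The V segments Iglv1 and Iglv2 were as close, at 340 of 351 coding bases (96.9%). The last 300 bases of each, with their 8 differing bases in capitals, lie at chr16:19085017-19085316 and chr16:19260401-19260700 on the same strand.
Iglv1: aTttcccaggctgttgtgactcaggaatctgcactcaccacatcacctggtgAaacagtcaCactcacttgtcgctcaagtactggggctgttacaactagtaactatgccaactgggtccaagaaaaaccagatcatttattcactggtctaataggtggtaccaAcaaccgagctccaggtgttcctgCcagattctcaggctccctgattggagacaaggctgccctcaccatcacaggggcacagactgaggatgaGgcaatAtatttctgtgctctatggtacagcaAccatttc
Iglv2: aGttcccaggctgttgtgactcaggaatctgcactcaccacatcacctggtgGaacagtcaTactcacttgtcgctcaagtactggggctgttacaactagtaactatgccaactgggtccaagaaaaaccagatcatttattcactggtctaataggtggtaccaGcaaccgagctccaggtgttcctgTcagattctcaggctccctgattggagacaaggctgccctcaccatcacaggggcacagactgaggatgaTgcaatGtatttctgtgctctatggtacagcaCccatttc
The other members stood apart. Iglc1 was 74.8% identical to Iglc2 and 75.4% to Iglc3, Iglv3 was 56.6% identical to Iglv1, and Igkc was 59.1% identical to Iglc1.

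Exact matches between windows of the reference transcripts were counted as a guide to how often a read could fit more than 1 gene. Windows that differ at a few bases, and reads that differ from the reference, were not considered. Of the 50-base windows of Iglc3, 22.3% also occurred in another gene's transcript, and the share was 10.5% for Iglc2, 22.2% for Iglv1 and 24.0% for Iglv2. At 75 bases the shares were 7.1%, 1.3%, 9.5% and 10.3%. At 100 bases only Iglv1 (1.7%) and Iglv2 (1.9%) still had shared windows, and at 150 bases no member had any. Igkc, Iglc1 and Iglv3 had none at any of the 4 lengths. For Iglc3 the windows were shared with Iglc2 and with 2010309G21Rik, an antisense RNA that crosses the locus and was listed at 0.00 to 0.09 FPKM in MHCII-lo and 0.34 to 0.98 FPKM in MHCII-hi. The sources used here do not state how the authors assigned shared reads or whether strand was used, so the split between Iglc2 and Iglc3 and between Iglv1 and Iglv2 is uncertain.

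**Figure D1:**
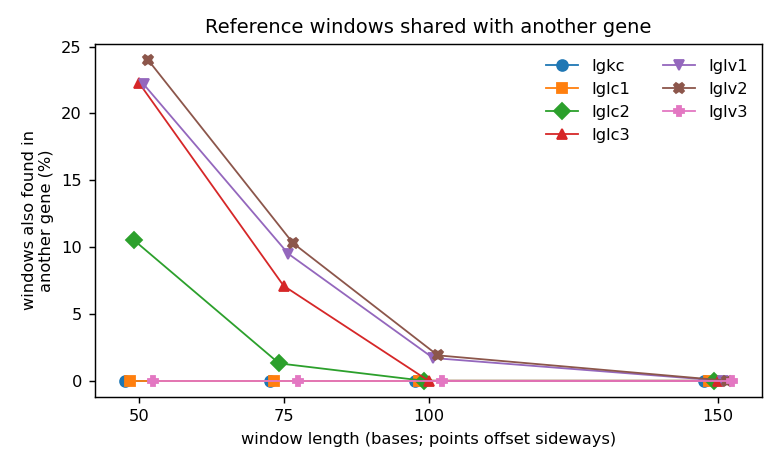
The y axis gives the percent of reference windows of each gene that also occur in a transcript of another gene, on either strand, and the x axis gives the window length in bases. Iglv2, Iglc3, Iglv1 and Iglc2 start between 10.5% and 24.0% at 50 bases and reach 0 by 150 bases, while Igkc, Iglc1 and Iglv3 stay at 0 throughout.

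All 7 genes rose in MHCII-hi (limma adjusted p under 0.05), and every MHCII-hi library lay above every MHCII-lo library for each of them. Of the 12295 genes tested, 67.8% were called in either direction and 27.2% were called higher and 40.5% lower, and in 29.6% every MHCII-hi library lay above every MHCII-lo library. The 7 changes were between 3.28 and 5.00 on the log2(FPKM + 1) scale, with a median of 3.96 against -0.08 over all tested genes. A called rise of at least 3 on this scale was found in 1.3% of the tested genes. Each of the 7 averaged at least 1.46 FPKM in MHCII-lo as well, so none passed the minimum of 1 FPKM only through its level in MHCII-hi.

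The kappa constant gene carried most of the light chain signal. Igkc stood at 244.57, 193.07 and 192.30 FPKM in MHCII-lo libraries 1 to 3 and at 6646.36, 6653.48 and 6792.79 FPKM in MHCII-hi libraries 1 to 3. The means were 209.98 ± 29.96 and 6698 ± 82.6 FPKM (SD, n = 3), a 31.9-fold difference. Igkc held place 184 among all genes by level in MHCII-lo and place 4 in MHCII-hi. Its log2 change of 5.00 ± 0.09 (SE; limma adjusted p = 6.9e-08) ranked 18 of the 12295 tested genes. MHCII-lo library 1 was the highest of its group, and the coefficient of variation (CV, SD over mean) was 14.3% in MHCII-lo against 1.23% in MHCII-hi.

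The lambda constant genes followed at much lower levels. Iglc1, the constant gene farthest downstream, stood at 5.42, 4.24 and 6.55 FPKM in MHCII-lo and 92.79, 96.59 and 104.09 FPKM in MHCII-hi. Its mean was 18.1-fold higher in MHCII-hi (log2 change 3.96 ± 0.13, limma adjusted p = 6.74e-07). Iglc2, which lies downstream of Iglv2 and Iglv3, stood at 3.39, 2.38 and 2.72 FPKM and at 64.32, 65.58 and 64.69 FPKM. The groups were far apart for both genes, and the MHCII-hi values of Iglc2 were nearly level, with a CV of 0.998%. The rise of Iglc2 was 22.9-fold (log2 change 4.11 ± 0.09, limma adjusted p = 1.3e-07). Its near-copy Iglc3 went from 2.54, 2.69 and 4.05 FPKM to 65.38, 63.67 and 62.30 FPKM, a 20.6-fold rise (log2 change 4.0 ± 0.13, limma adjusted p = 7.13e-07). Iglc2 and Iglc3 overlapped in level in both groups, with a ratio of 0.964 ± 0.338 in MHCII-lo and 1.02 ± 0.0294 in MHCII-hi (SD, n = 3).

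The V segments rose as well, with smaller folds. Iglv1, the V segment nearest to Iglc3 and Iglc1, stood at 14.06, 13.80 and 12.75 FPKM in MHCII-lo and 177.33, 180.24 and 178.66 FPKM in MHCII-hi. That is a 13.2-fold rise (log2 change 3.63 ± 0.04, limma adjusted p = 1.01e-08), with the smallest relative spread of the 7 genes in both groups. Iglv2 went from 2.17, 2.33 and 2.53 FPKM to 32.75, 32.22 and 32.72 FPKM, a 13.9-fold rise (log2 change 3.33 ± 0.05, limma adjusted p = 2.37e-08). Iglv3, a V segment unlike the other two in sequence, stood at 1.49, 2.25 and 0.64 FPKM and at 21.02, 21.99 and 23.21 FPKM. Its MHCII-lo values spread most of all, with a CV of 55.2%, and its rise was 15.1-fold (log2 change 3.28 ± 0.23, limma adjusted p = 2.21e-05). With a pseudocount of 0.01 in place of 1, the log2 changes of Iglv1, Iglv2 and Iglv3 were 3.72, 3.79 and 4.08, and that of Igkc stayed at 5.00.

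**Figure D2:**
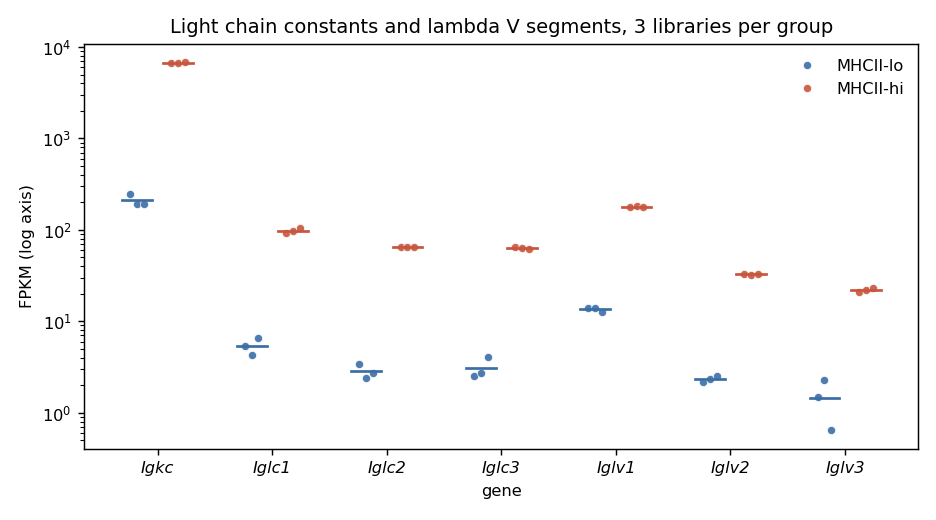
Points are FPKM values of the 3 libraries of each group on a log axis, and short lines are group means, for each of the 7 genes. Igkc reaches 6646 to 6793 FPKM in MHCII-hi and 192 to 245 FPKM in MHCII-lo, and the 6 lambda genes lie below it in both groups with no overlap between groups.

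By level per kilobase the order in MHCII-hi was Igkc, Iglv1, Iglc1, Iglc2, Iglc3, Iglv2 and Iglv3, and only the neighbours Iglc2 and Iglc3 overlapped in their 3 values. In MHCII-lo the order began the same way, with Igkc, Iglv1 and Iglc1 apart from each other. Below them Iglc3, Iglc2, Iglv2 and Iglv3 each overlapped with the next in order, at means between 1.46 and 3.09 FPKM. Together the 7 genes made up 0.0892%, 0.0722% and 0.0722% of the library FPKM in MHCII-lo and 2.13%, 2.13% and 2.18% in MHCII-hi. Of the FPKM of all immunoglobulin segments they held 18.7 ± 0.693% and 25.9 ± 0.233% (SD, n = 3).

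The kappa to lambda ratio, Igkc over the sum of Iglc1, Iglc2 and Iglc3, was higher in each MHCII-hi library than in any MHCII-lo library. It was 21.5, 20.7 and 14.4 in MHCII-lo and 29.9, 29.5 and 29.4 in MHCII-hi, or 18.9 ± 3.89 and 29.6 ± 0.259 (SD, n = 3), a 1.59-fold difference between the geometric means. As a share of the light chain constant sum, Igkc was 95.6%, 95.4% and 93.5% in MHCII-lo and 96.8%, 96.7% and 96.7% in MHCII-hi. The low value of MHCII-lo library 3 went with the highest lambda constant sum of that group, 13.3 FPKM against 11.35 and 9.31 FPKM. An exact two-sided permutation test of the log2 ratio gave p = 0.1, the smallest p that 3 against 3 libraries allow, and 0.117 after Benjamini-Hochberg adjustment over 7 comparisons. This test therefore cannot call any of the ratios at the 0.05 level, and no model-based test was run on them.

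The same ratio taken over the V segments gave similar values. The 118 kappa V symbols summed to 349.45, 289.85 and 291.86 FPKM in MHCII-lo and to 6333, 6342 and 6334 FPKM in MHCII-hi. Of the 87 that were tested, 31 reached the minimum only through MHCII-hi. The other 56 were all called higher, where 27.2% of all tested genes were, with a median log2 difference of 3.87. Divided by the sum of Iglv1, Iglv2 and Iglv3, the kappa V sum was 19.7, 15.8 and 18.3 in MHCII-lo and 27.4, 27.1 and 27.0 in MHCII-hi, again with no overlap (1.52-fold, exact permutation p = 0.1, adjusted 0.117). V segments and constant genes thus gave kappa to lambda differences of 0.60 and 0.67 on the log2 scale in the same libraries. Each light chain holds both parts, so these differences are not independent readings.

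Within each locus the V segments stood lower against the constant genes in MHCII-hi. The 3 lambda V segments over the 3 lambda constant genes gave 1.56, 1.97 and 1.20 in MHCII-lo and 1.04, 1.04 and 1.02 in MHCII-hi (0.667-fold, exact permutation p = 0.1, adjusted 0.117). The kappa V sum over Igkc was 1.43, 1.5 and 1.52 in MHCII-lo and 0.953, 0.953 and 0.932 in MHCII-hi. Both ratios lay above 1 in every MHCII-lo library, and in MHCII-hi the lambda ratio was near 1 and the kappa ratio under 1. Transcript length moved with the groups as well. Among genes with a single annotated transcript outside the immunoglobulin segments, the median log2 change was -0.29 for the 186 of 300 to 400 bases and -0.23 for the 273 of 400 to 550 bases. The first bin holds the annotated lengths of the lambda V segments and the second those of the 4 constant genes in their single-exon form. For a V to constant ratio the gap between these medians, -0.29 and -0.23, matters rather than the medians themselves. The log2 difference of the lambda ratio was -0.58. The part of length in the ratio was not tested.

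Within the lambda locus, the V segment ratio overlapped between the groups and the constant gene ratio did not. Iglv1 over Iglv2 plus Iglv3 was 3.84, 3.01 and 4.02 in MHCII-lo and 3.30, 3.32 and 3.19 in MHCII-hi, with overlapping groups (exact permutation p = 0.4, adjusted 0.4). Iglc1 over Iglc2 plus Iglc3 was 0.914, 0.836 and 0.968 in MHCII-lo and 0.715, 0.747 and 0.820 in MHCII-hi, without overlap but by a narrow gap (0.840-fold, exact permutation p = 0.1, adjusted 0.117). Taken by neighbourhood on the chromosome, Iglv1 over Iglc1 plus Iglc3 was 1.65 ± 0.406 and 1.11 ± 0.0284, and Iglv2 plus Iglv3 over Iglc2 was 1.39 ± 0.465 and 0.842 ± 0.0198 (SD, n = 3). In both clusters of the locus every MHCII-hi library had a lower V to constant ratio than any MHCII-lo library.

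**Figure D3:**
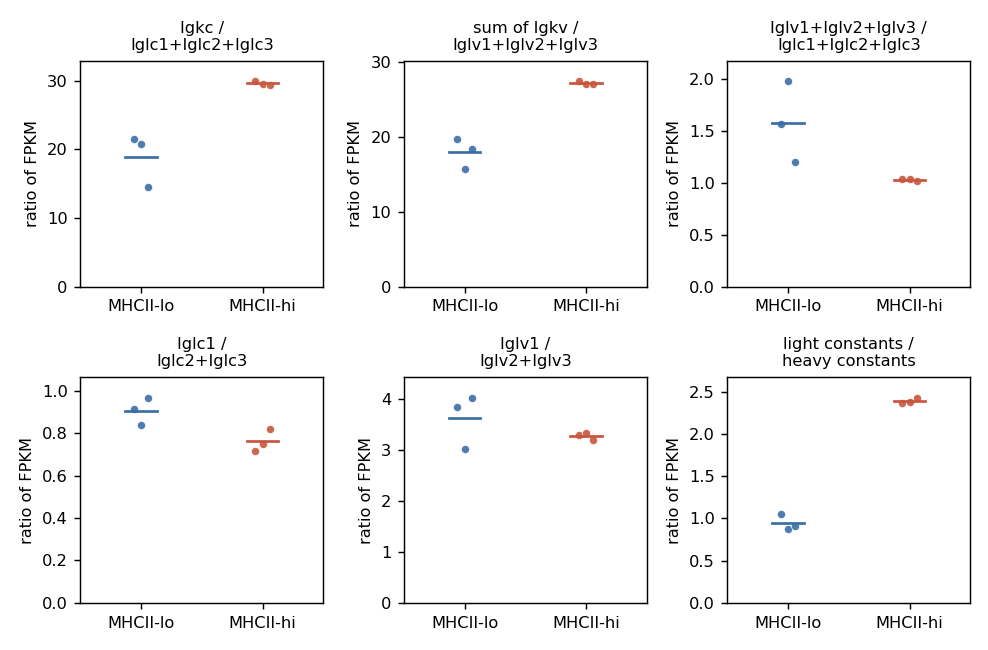
Each panel plots a ratio of FPKM sums for the 3 libraries of MHCII-lo and MHCII-hi, with short lines at the group means and axes that start at 0. The kappa to lambda ratios are 14.4 to 21.5 against 29.4 to 29.9 over constant genes and 15.8 to 19.7 against 27.0 to 27.4 over V segments, and only the ratio of Iglv1 to Iglv2 plus Iglv3 overlaps between groups.

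The other elements of the lambda locus were read from a list of 6, of which 5 were in the files and 3 reached the minimum. Iglj1 and Iglj3 were called higher, where 27.2% of all tested genes were. The remaining one, Iglj2, was called as well but reached the minimum only through MHCII-hi. It could pass the filter only with a rise, so its call adds no support. Iglj1 stood at 4.69, 7.63 and 6.58 FPKM in MHCII-lo and 125.14, 139.46 and 131.23 FPKM in MHCII-hi. Iglj3 stood at 3.28, 1.64 and 2.83 FPKM and at 69.82, 80.76 and 67.57 FPKM. In every MHCII-hi library both J segments lay above the constant gene beside them, Iglc1 and Iglc3. Iglj2 stood far below its own constant gene, at 0.02 to 0.04 FPKM in MHCII-lo and 5.29 to 6.76 FPKM in MHCII-hi, where Iglc2 stood at 64.3 to 65.6 FPKM. The sequences of Iglj2 and Iglj3 are shown because these segments, so unlike in level, differ at only 4 of 38 bases. The 4 bases are in capitals, at chr16:19200198-19200235 and chr16:19067041-19067078 on the minus strand.
Iglj2: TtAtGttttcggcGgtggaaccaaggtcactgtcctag
Iglj3: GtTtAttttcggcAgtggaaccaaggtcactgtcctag
Iglj2 also lies inside an exon of the second annotated Iglc2 transcript, so its reads can be counted under either gene. The J pseudosegment Iglj3p stood at 0.00 to 0.33 FPKM in MHCII-lo and 0.66 to 1.54 FPKM in MHCII-hi. The pseudogene Iglc4, which lies 65.5 kb downstream of Iglv2, was listed at 0 in all libraries but MHCII-hi library 3, where it stood at 0.34 FPKM.

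**Figure D4:**
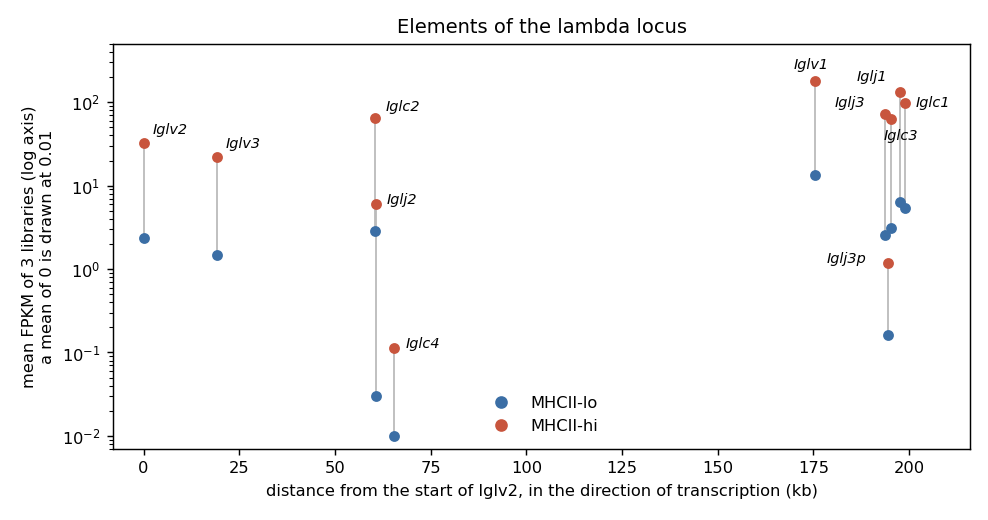
Mean FPKM of the 3 libraries of each group, on a log axis, is plotted for 11 lambda elements at their distance from the start of Iglv2 in kb, in the direction of transcription, with a mean of 0 drawn at 0.01. Iglc2 is placed at the start of its longer transcript, upstream of its constant exon. Iglv1, Iglj1, Iglc1 and the other elements of the downstream cluster reach 63.8 to 179 FPKM in MHCII-hi apart from Iglj3p, and Iglc4 stays near 0.

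All 4 kappa J segments that reached the minimum in both groups rose, where 27.2% of all tested genes did. Igkj1 stood at 39.4 ± 5.86 and 1270 ± 14.7 FPKM, Igkj2 at 36.3 ± 8.55 and 804 ± 3.83 FPKM, and Igkj5 at 14.9 ± 3.07 and 587 ± 16.6 FPKM (SD, n = 3). Igkj3, a J segment that is not used in mouse kappa chains, reached the minimum only through MHCII-hi. It was lowest in MHCII-hi at 9.27, 10.92 and 11.21 FPKM, against 0.86, 0.77 and 0.41 FPKM in MHCII-lo. Igkj4 stood at 0.39, 0.61 and 22.76 FPKM in MHCII-lo and 330.64, 353.91 and 351.80 FPKM in MHCII-hi. Its log2 change of 6.52 thus rests on MHCII-lo library 3 and is 7.85 without that library. Its place among the 4 rests on that library too, since its other MHCII-lo values lay under the minimum. J segments are shorter than typical fragments, so their values per kilobase are less certain than those of V and C genes.

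Light chains pair with heavy chains, and the ratio of the constant genes of both was read next. Igkc plus the 3 lambda constant genes, over the sum of 8 heavy constant genes, was 1.06, 0.879 and 0.913 in MHCII-lo and 2.36, 2.38 and 2.43 in MHCII-hi (2.53-fold, exact permutation p = 0.1, adjusted 0.117). The heavy constant sum itself was 12.5-fold higher in MHCII-hi, against 31.3-fold for the light constant sum. Its make-up differed between the groups. Ighm, the constant gene of IgM, made up 70.7 ± 2.27% of the heavy constant sum in MHCII-lo and 29.5 ± 0.130% in MHCII-hi. Igha, of IgA, made up 11.3 ± 1.12% and 35.7 ± 0.215%, and Ighg2c, of an IgG subclass, 7.43 ± 0.875% and 20.8 ± 0.110% (SD, n = 3).

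The direction of the light to heavy ratio depended on which heavy gene was the base. Over Ighm plus Ighd the ratio was 1.54, 1.22 and 1.25 in MHCII-lo and 7.91, 7.91 and 8.10 in MHCII-hi. Over Igha alone it was 8.41, 8.36 and 8.50 in MHCII-lo and 6.62, 6.71 and 6.77 in MHCII-hi, a log2 difference of -0.33 against 1.34 over all heavy constants. The ratio to Igha had SDs of 0.0679 in MHCII-lo and 0.0741 in MHCII-hi, against 0.176 and 0.112 for the ratio to Ighm plus Ighd. Over all heavy constants, where the means were lower, the SDs were 0.0940 and 0.0351. All 6 heavy constant genes that reached the minimum in both groups were called higher (27.2% of all tested genes were), among them Igha, with a log2 change of 5.25 ± 0.08, and Ighg2c, with 5.05 ± 0.10. Ighg2b changed by 3.95 ± 0.05. Ighg3 reached the minimum only through MHCII-hi and stood at 0.59 ± 0.0917 and 26.8 ± 1.66 FPKM (SD, n = 3). Ighm, chosen for its place in the ratio, went from 164 ± 1.26 to 855 ± 1.74 FPKM (limma adjusted p = 9.58e-10).

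MHCII-lo library 1 stood above the other two libraries of its group for Igkc (244.57 against 193.07 and 192.30 FPKM), for Igha (30.43 against 24.20 and 24.20 FPKM) and for Jchain (19.80 against 16.43 and 16.55 FPKM). Jchain encodes the joining chain of secreted IgM and IgA. The other plasma cell markers were mixed. MHCII-lo library 1 was the highest of its group for Sdc1 (1.74 against 1.44 and 1.21 FPKM) and Derl3. It was the lowest for Irf4 (2.02 against 2.30 and 2.34 FPKM), Xbp1 (53.54 against 54.31 and 54.08 FPKM) and Fkbp11. For Mzb1, Prdm1 and Tnfrsf17 it was not the highest. The same library was level with the others for Ighm, at 165.18 against 165.11 and 162.97 FPKM, and was not the highest for the lambda constant sum. Without it, the log2 change of Igkc was 5.11.

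The surrogate light chain, which stands in for kappa or lambda in pre-B cells, rose less. Igll1, the lambda5 chain, stood at 2.53, 2.77 and 2.57 FPKM in MHCII-lo and 4.87, 5.30 and 5.74 FPKM in MHCII-hi, a 2.02-fold rise (log2 change 0.80 ± 0.06, limma adjusted p = 4.37e-05). Its partner Vpreb1 had a log2 change of 0.60 ± 0.07. Vpreb2 lay under the minimum, at 0.36 to 1.08 FPKM over the 6 libraries, with overlapping groups. Vpreb3, a relative of Vpreb1, rose 6.94-fold, from 3.92 ± 0.443 to 27.2 ± 1.86 FPKM (SD, n = 3). The 3 tested genes of this list were all called higher (27.2% of all tested genes were), with a median of 0.80 against 3.96 for the light chain genes.

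All 4 genes of the receptor and polymer partners rose, where 27.2% of all tested genes did. The signalling chains of the B cell receptor, Cd79a and Cd79b, rose 11.7-fold and 4.01-fold, Jchain rose 19.4-fold, and Mzb1, a chaperone of antibody assembly, rose 9.86-fold. Of 16 recombination and light chain enhancer factors, Rag2 and Ebf1 reached the minimum only through MHCII-hi. Among the other 14, 13 rose and 1 fell, where 27.2% of all tested genes rose and 40.5% fell, and the median change was 0.94 on the log2 scale. The largest rises were those of Pax5 (2.74 ± 0.04), Irf4 (2.71 ± 0.05) and Spib (2.47 ± 0.03), and of the recombinase gene Rag1 (2.10 ± 0.06). Irf4 and Spib encode factors that bind light chain enhancers. The factor that fell was Irf8, from 51.9 ± 0.560 to 40.8 ± 0.523 FPKM (log2 change -0.34 ± 0.02, limma adjusted p = 1.35e-05).

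Markers of B cells and plasma cells moved with the light chain genes. The 10 B cell markers summed to 23.4 to 25.7 FPKM in MHCII-lo and 187 to 192 FPKM in MHCII-hi, 7.66-fold more. The 6 that reached the minimum in both groups rose, and Ms4a1 and Fcmr reached it only through MHCII-hi. Of the mature B cell markers under the minimum, Fcer2a stood at 0.00 to 0.15 FPKM in MHCII-lo and 1.57 to 2.09 FPKM in MHCII-hi, and Cr2 at 0.00 to 0.01 FPKM and 0.17 to 0.31 FPKM. The 9 plasma cell markers summed to 79.3 to 82.1 FPKM and 467 to 472 FPKM. Of the 6 that reached the minimum in both groups 5 rose, where 27.2% of all tested genes did. Fkbp11 did not pass, at 1.13 to 1.30 FPKM in MHCII-lo and 1.34 to 1.60 FPKM in MHCII-hi. Tnfrsf17, the receptor BCMA of plasma cells, stood at 0.20 to 0.32 FPKM and 3.13 to 3.63 FPKM and, like Prdm1 and Derl3, reached the minimum only through MHCII-hi. Of the other lists, counted over genes that reached the minimum in both groups, 4 of 5 T cell markers rose and 1 fell, the 4 tested dendritic cell markers rose, and all 5 erythroid markers fell. Over all tested genes 27.2% rose and 40.5% fell. Beside the 31.9-fold difference in Igkc, the plasma cell sum differed 5.85-fold, with Xbp1, at 54.0 FPKM in MHCII-lo, differing 1.27-fold. Among single B cell markers, Cd79a differed 11.7-fold and Ms4a1 29.5-fold, and Fcmr, from 0.103 FPKM in MHCII-lo, 111-fold. Fewer cells of a type and less RNA per cell cannot be told apart in bulk samples, and the part of these cell types in the light chain levels was not tested.

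**Figure D5:**
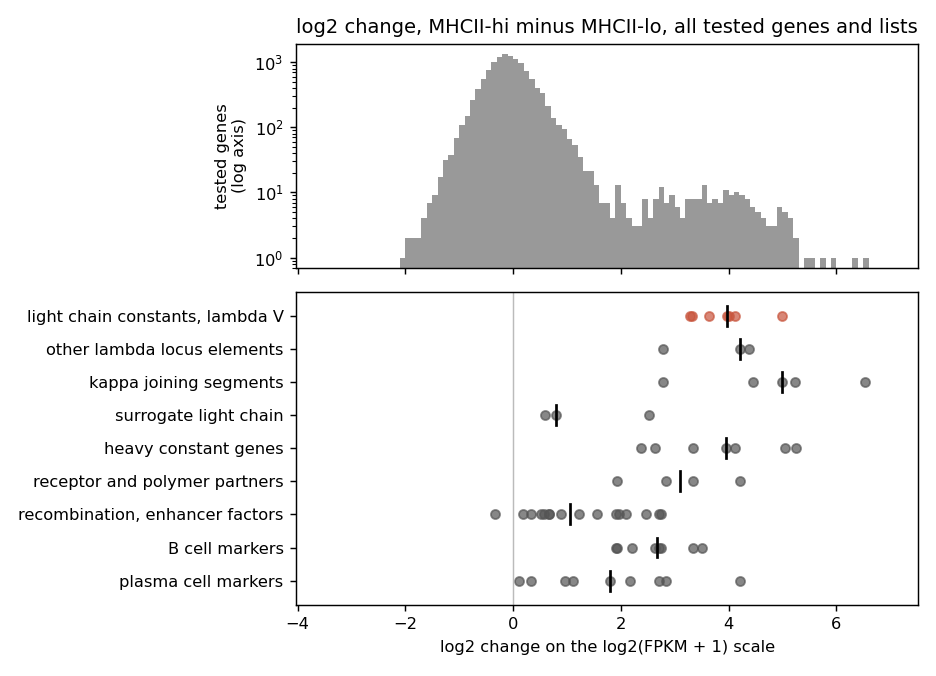
The upper panel is a histogram of the log2 changes (MHCII-hi minus MHCII-lo) of all 12295 tested genes, with a log count axis. The lower panel gives each tested gene of the lists as a point and the list median as a black line, with the 7 light chain genes at 3.28 to 5.00 and the surrogate light chain at a median of 0.80.

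Genes with the most similar profiles over the 6 libraries were ranked by Euclidean distance between centred log2(FPKM + 1) values, among 10813 other tested genes. Symbols that start with Gm or end in Rik were left out of the ranking. Nearest to Igkc were Igkj1 (distance 0.067), Ighv1-75 (0.161), Ighv3-6 (0.165), Igkv6-25 (0.195) and Ighg2c (0.205). Nearest to the lambda constant sum were Ighv1-69 (0.184), Igkv3-4 (0.220), Ighv1-64 (0.271), Igkv6-23 (0.283) and Igkv5-39 (0.300). All 10 are immunoglobulin segments of the heavy or kappa locus. Ighv1-69, at a mean of 0.993 FPKM in MHCII-lo, reached the minimum of 1 FPKM only through MHCII-hi. The distances describe a 2-group pattern and share the same libraries, so no p-value is given.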

How the data were processed

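RNA from 6 sorted bone marrow samples, 3 MHCII-lo and 3 MHCII-hi, was purified on micro columns and turned into stranded mRNA libraries, per the labels' protocols. Per the submitters' processing notes, the authors used fastp, HISAT2 and StringTie with GRCm38 and mm10. The notes give no versions or settings. The deposited files give 1 value per symbol in 30803 rows. These were taken as FPKM, normalized by the authors to library size and transcript length, since they have 2 decimals and unequal totals. Since depth is unknown, no counting intervals are given.

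For the 67 repeated symbols, the row highest on average was used. Genes whose mean over the 6 libraries reached 1 FPKM were tested on log2(FPKM + 1) in limma 3.58.1 under R 4.3.3 (mean-variance trend, two-sided, Benjamini-Hochberg over 12295 genes). Such fold changes understate those of low genes, and folds in the text are ratios of mean FPKM, or of geometric mean ratios for ratios. Ratios were compared by exact permutation in scipy 1.17.1. The fit was tested on simulated data. Coordinates and sequences come from GENCODE M21 on GRCm38, and identities from Biopython 1.88 alignments. Promoter and protein sequences were not used here.

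The members and lists were chosen with earlier results of these data known. From each list the text names at most the 4 largest called changes whose groups did not overlap, any gene that completes a count of 5 or fewer, and for Igkc and the lambda sum the 5 nearest profiles. Marker genes, Ighm and 2010309G21Rik were named after their values were seen. Alternatives were other pseudocounts, filters, scalings, weights, a replicate block, each library left out, and other definitions of the ratios.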

Additional observations from a re-analysis of the deposited data

How the results depend on the processing

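The 7 light chain genes were called higher under each of the 17 alternatives to the fit, with limma adjusted p-values between 1.26e-09 and 0.000228. Pseudocounts of 0.1 and 0.01, no filter, a minimum of 5 FPKM, 3 other scalings, no trend, array weights, summed repeats and each library left out were run. Quantile normalization gave the smallest log2 change of Igkc, 4.57 against 5.00. Leaving out each library moved the log2 difference of the kappa to lambda ratio between 0.48 and 0.77, that of the lambda V to constant ratio between -0.77 and -0.41, and that of Iglv1 to Iglv2 plus Iglv3 between -0.26 and -0.06. The direction of the ratios and of the light chain share was kept in 65 values under the alternatives and turned in 2, and none could pass the permutation test. The number of genes called was between 5911 (minimum of 5 FPKM) and 8673 (no filter). The ratio of Iglv1 to Iglv2 plus Iglv3 had a log2 difference of 0.09 with 1 FPKM added to each sum, against -0.14, because the addition weighs more on the low MHCII-lo values. The light to heavy ratio had -0.33 over Igha alone, against 1.34. Over all tested genes, median-of-ratios scaling gave 4090 higher and 4001 lower calls, against 3348 and 4982. With the replicate number as a block, 7 members and 8031 genes were called. Same-numbered libraries had deviations correlated at 0.063, 0.002 and 0.080, and differently numbered ones at -0.095 to 0.025. With 3 libraries per group these values cannot tell whether the numbers pair the samples. Without depth, how precisely the MHCII-lo values under 5 FPKM were measured is unknown.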
